A study of Mus musculus with 10 samples.

Results

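Interleukins are secreted or released messenger proteins, and interleukin receptors are the membrane chains that bind them. The genes described here are all rows of the count table whose symbol begins with Il and a number, without pseudogenes and antisense transcripts named after them. The rule gave 82 of 55453 symbols, all annotated as protein-coding, namely 40 ligand-side genes (37 ligands and 3 antagonists or binding proteins), 41 receptors (3 of them decoys) and 1 enzyme, the interleukin 4-induced amino acid oxidase Il4i1. RNA was measured by bulk sequencing of whole aortae from male C57BL/6 mice that had been purchased, 5 young (14.5 weeks) and 5 old (92.5 weeks in the labels), with 1 mouse per library. By the labels the groups share sex, strain and tissue and differ in age. All mice were killed at the same time, and the vessels were perfused with saline and freed of the fat that surrounds them. The question is how the levels of these genes differ between the old and the young vessel.

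Interleukin receptors work as complexes in which a private chain recognises the ligand and a shared chain passes the signal on. Shared chains are gp130 (Il6st) for the IL-6 family and the common gamma chain (Il2rg) for the lymphocyte growth interleukins. The IL-1 receptor accessory protein (Il1rap) serves much of the IL-1 family, Il17ra the IL-17 family and Il10rb part of the IL-10 family. Most interleukin receptors signal through Janus kinases and STAT factors, while the IL-1 and IL-17 families reach NF-kB through adaptors such as Myd88 and Act1 (Traf3ip2). In vessels, interleukins are known as mediators between leukocytes, endothelium, smooth muscle and adventitial fibroblasts.

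Of the 82 genes, 16 had no read in any library, 32 had reads but did not pass the low-count filter, and 34 were tested. In edgeR's quasi-likelihood test 6 genes passed an adjusted p of 0.05, which is 17.6% of the 34 genes tested. Among all 14614 genes tested the share was 11.5%. The ligand Il33 and the receptors Il7r, Il21r, Il10ra and Il17ra were higher in old aortae, which makes 5 of 34 against 6.48% of all genes. Il6st was lower, 1 of 34 against 4.99% of all genes. The log2 fold change of old over young was positive for 25 of 34 members and for 50.8% of all genes, and its median was 0.22 for the members and 0.00 for all genes. At an unadjusted p below 0.05 there were 16 of 34 members against 26.7% of all genes, 12 of them higher (14.1% of all genes) and 4 lower (12.6% of all genes). In 3 of the 34 the values of the groups did not overlap, against 9.92% of all genes tested. Il17ra and Il21r were the 2 higher ones (5.37% of all genes) and Il6st the 1 lower (4.55% of all genes).

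The total count per library ranged from 19640401 to 22886153. Markers of smooth muscle were abundant in every library, with summed normalized counts between 740029 and 949962 over 8 genes. The old library 3 had the highest sums of pan-leukocyte, macrophage, T cell, B cell and NK cell markers among the old aortae. In old library 2 the mitochondrial share of the counts was 11.0%, the highest of all, where the other libraries lay between 4.50% and 6.51%. Adipocyte markers summed to 22722 in young library 1 and to 5105 to 12470 in the others. Striated muscle markers summed to 1193 in young library 2 and to 173 to 313 in the others. Their part in the differences between the groups was not tested. All normalized counts given here are counts divided by DESeq2 size factors, and adjusted p-values are those of edgeR's quasi-likelihood test unless another test is named.

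**Figure D1:**
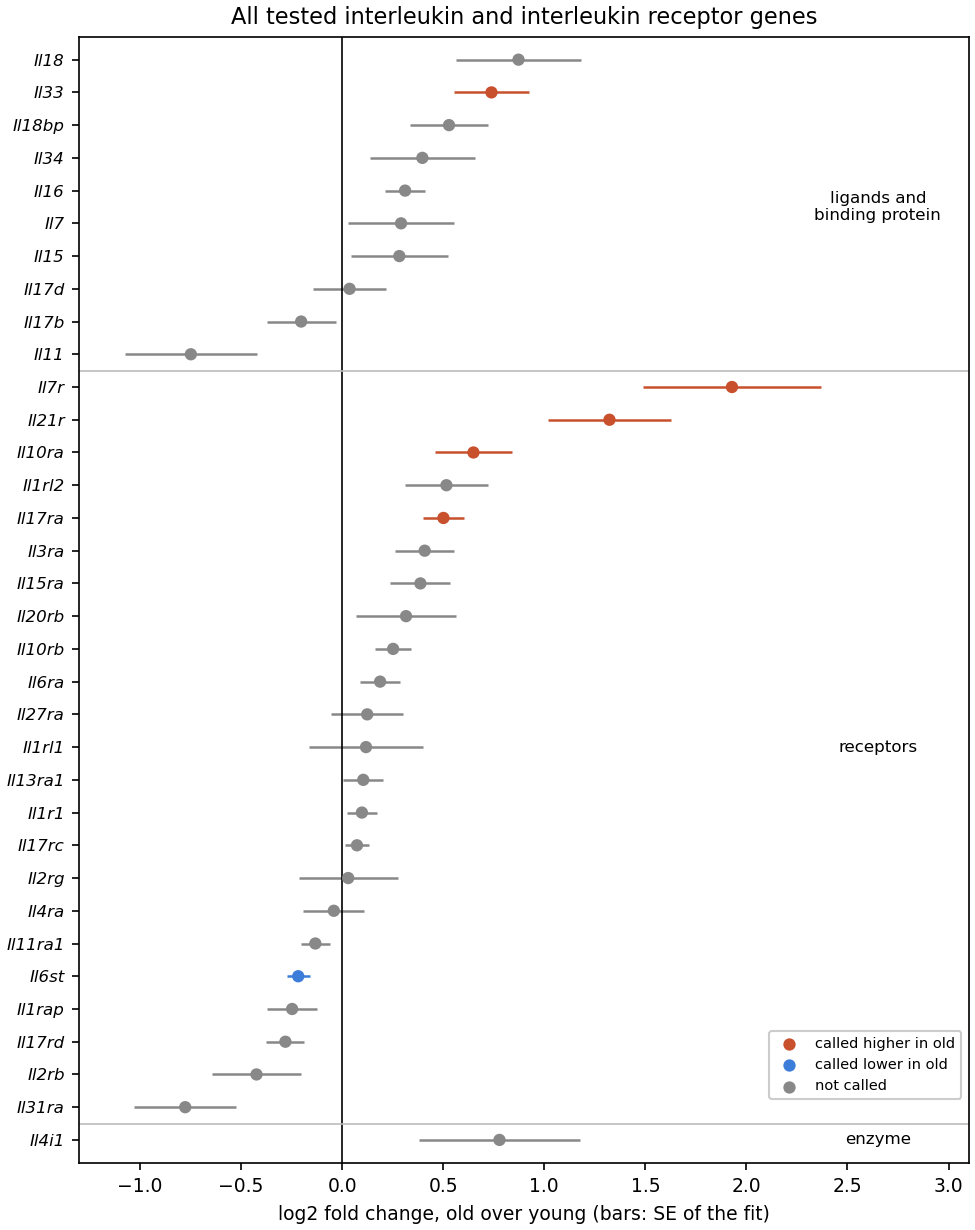
Log2 fold change of old over young (horizontal axis) for the 34 tested genes, ligand-side genes above, receptors in the middle and the enzyme at the bottom; bars are the standard error of the fit. The 5 genes called higher and Il6st, called lower, are coloured. Il7r (1.93) and Il21r (1.32) lie farthest to the right.

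The 250 bases before the RefSeq start are shown for 4 of the 6 called genes, the ligand Il33, the receptor chains Il7r and Il21r with the largest fold changes, and the lower gene Il6st, so that they can be set beside their expression. They were taken from RefSeq on GRCm38.p6 and run in the direction of the gene. No promoter entry was found for Il17ra and Il10ra. The windows are chr19:29924863-29925112 (plus strand) for Il33, chr15:9529877-9530126 (minus strand) for Il7r, chr7:125603179-125603428 (plus strand) for Il21r and chr13:112463820-112464069 (plus strand) for Il6st. The RefSeq start of Il7r lies 300 bases inside the start that GENCODE gives. Capitals mark a match to 1 of 4 motifs searched on both strands, the STAT motif TTCNNNGAA, the NF-kB motif GGGA and CC with 4 bases of any kind between them, the AP-1 motif TGANTCA and the PU.1 motif GAGGAAGT.
Il33: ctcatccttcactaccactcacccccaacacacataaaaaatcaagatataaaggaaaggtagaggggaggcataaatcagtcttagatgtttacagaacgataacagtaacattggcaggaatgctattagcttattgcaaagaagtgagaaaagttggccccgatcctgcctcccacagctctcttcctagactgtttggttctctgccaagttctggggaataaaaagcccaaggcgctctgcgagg
Il7r: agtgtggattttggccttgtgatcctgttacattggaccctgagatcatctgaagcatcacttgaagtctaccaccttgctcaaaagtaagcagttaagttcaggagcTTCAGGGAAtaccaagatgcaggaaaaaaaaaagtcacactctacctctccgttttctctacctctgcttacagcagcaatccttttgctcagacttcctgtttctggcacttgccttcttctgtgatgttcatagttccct
Il21r: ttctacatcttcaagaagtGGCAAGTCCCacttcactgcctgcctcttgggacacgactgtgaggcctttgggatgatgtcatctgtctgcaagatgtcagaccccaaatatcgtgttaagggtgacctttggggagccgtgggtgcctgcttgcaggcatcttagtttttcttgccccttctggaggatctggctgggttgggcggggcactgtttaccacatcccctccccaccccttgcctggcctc
Il6st: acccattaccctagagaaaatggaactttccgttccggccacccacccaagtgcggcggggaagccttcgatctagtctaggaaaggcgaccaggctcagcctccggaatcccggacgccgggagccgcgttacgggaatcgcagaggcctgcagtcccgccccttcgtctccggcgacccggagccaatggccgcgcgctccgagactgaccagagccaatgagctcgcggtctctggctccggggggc

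The Il6st window held 26 CpG dinucleotides and 66% G and C. The median over 32851 promoters of the same length was 6 CpG and 52.4% G and C. The other windows were poor in CpG, with 1 in Il7r and 4 each in Il33 and Il21r. Il7r held a STAT match, which 7.02% of all promoters hold, and Il21r an NF-kB match on the opposite strand, which 17.6% of all promoters hold. None of the 4 motifs was found in the windows of Il33 and Il6st. A match describes letters only and does not show that a factor binds there.

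Among the ligand-side genes 10 of 40 were tested and 1, Il33, passed, a share of 10% that is near the 11.5% of all genes tested. Their median log2 fold change was 0.30. Il33 encodes a nuclear alarmin of the IL-1 family that is released from damaged barrier and stromal cells and binds the receptor Il1rl1. The gene lies at chr19:29925114-29960718 (plus strand). Normalized counts of Il33 were 890, 718, 647, 896 and 739 in the young mice and 871, 1930, 1282, 1164 and 1211 in the old ones. Of the 5 old values 4 were above all young values, the first old mouse lay within the young range, and the second old mouse was the highest. The mean rose from 778 ± 110 to 1292 ± 389 (SD, n = 5 each), a log2 fold change of 0.74 with a standard error of 0.19 (adjusted p = 0.0283). Without old library 2 the log2 fold change was 0.54 (adjusted p = 0.0191). The call was lost when young library 2 (adjusted p = 0.0736), 3 (0.0611) or 5 (0.0688) or old library 3 (0.0649) was left out. The summed level of 8 fibroblast markers was 88239 to 95888 in young and 83367 to 108030 in old aortae. Of these markers 1 passed as higher (6.48% of all genes) and 1 as lower (4.99% of all genes). Their part in the Il33 difference was not tested.

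Il33 was also the most abundant ligand. Per kb of exon its normalized count averaged 359 over all libraries, followed by Il17b with 154, Il16 with 73.7 and Il17d with 56.7. The receptor of Il33, Il1rl1 (ST2), was among the lowest tested receptors at 5.37 per kb. Il1rl1 had a mean normalized count of 35.6 ± 12.4 in the young group and 38.4 ± 11.3 in the old group (SD, n = 5 each), and the log2 fold change of 0.12 had a standard error of 0.28 (adjusted p = 0.835). The groups overlapped almost entirely.

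Il18, the other IL-1 family ligand tested, is made as a precursor and cut by caspase-1, and Il18bp is its soluble inhibitor. Il18 read 36.8, 12.1, 16.9, 27.0 and 20.5 normalized counts in the young mice and 41.0, 28.3, 65.2, 35.7 and 36.0 in the old mice. The highest young value lay above 3 of the old ones, so the groups overlapped. The log2 fold change was 0.87 with a standard error of 0.31 (unadjusted p = 0.0139 from edgeR's quasi-likelihood test, adjusted p = 0.0858). Il18bp had means of 85.0 ± 11.3 and 122 ± 37.6 (SD, n = 5 each) and a log2 fold change of 0.53 with a standard error of 0.19 (adjusted p = 0.0992). Neither gene passed the threshold.

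The other ligands did not pass either. Il16, a precursor of a CD4-binding leukocyte attractant, had means of 519 ± 76.5 in young and 640 ± 57.7 in old aortae (log2 fold change 0.31, standard error 0.10, adjusted p = 0.0609). It passed under 5 of 18 other settings, among them DESeq2. Of its 50-base windows 15.5% occur in other genes, mostly the antisense gene Stard5, so its reads are uncertain. Il11, a ligand of gp130, read 9.20, 13.1, 18.9, 13.5 and 15.4 in young and 9.99, 3.27, 11.2, 6.75 and 9.72 in old aortae. These low counts overlapped, and the log2 fold change of -0.75 had a standard error of 0.33 (adjusted p = 0.163). Il15, which sustains NK and memory T cells, had means of 76.6 ± 33.1 and 92.7 ± 5.47, with the 5 young aortae split between 49.2 and 118 (log2 fold change 0.28, adjusted p = 0.497). Of the IL-17 family, the ligands Il17b (-0.20, adjusted p = 0.493) and Il17d (0.04, adjusted p = 0.924) had small log2 fold changes, and 9.47% of the windows of Il17b are shared with an antisense gene. The T cell survival factor Il7 and the second ligand of the CSF-1 receptor, Il34, had log2 fold changes of 0.29 and 0.40, with adjusted p-values of 0.528 and 0.363.

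**Figure D2:**
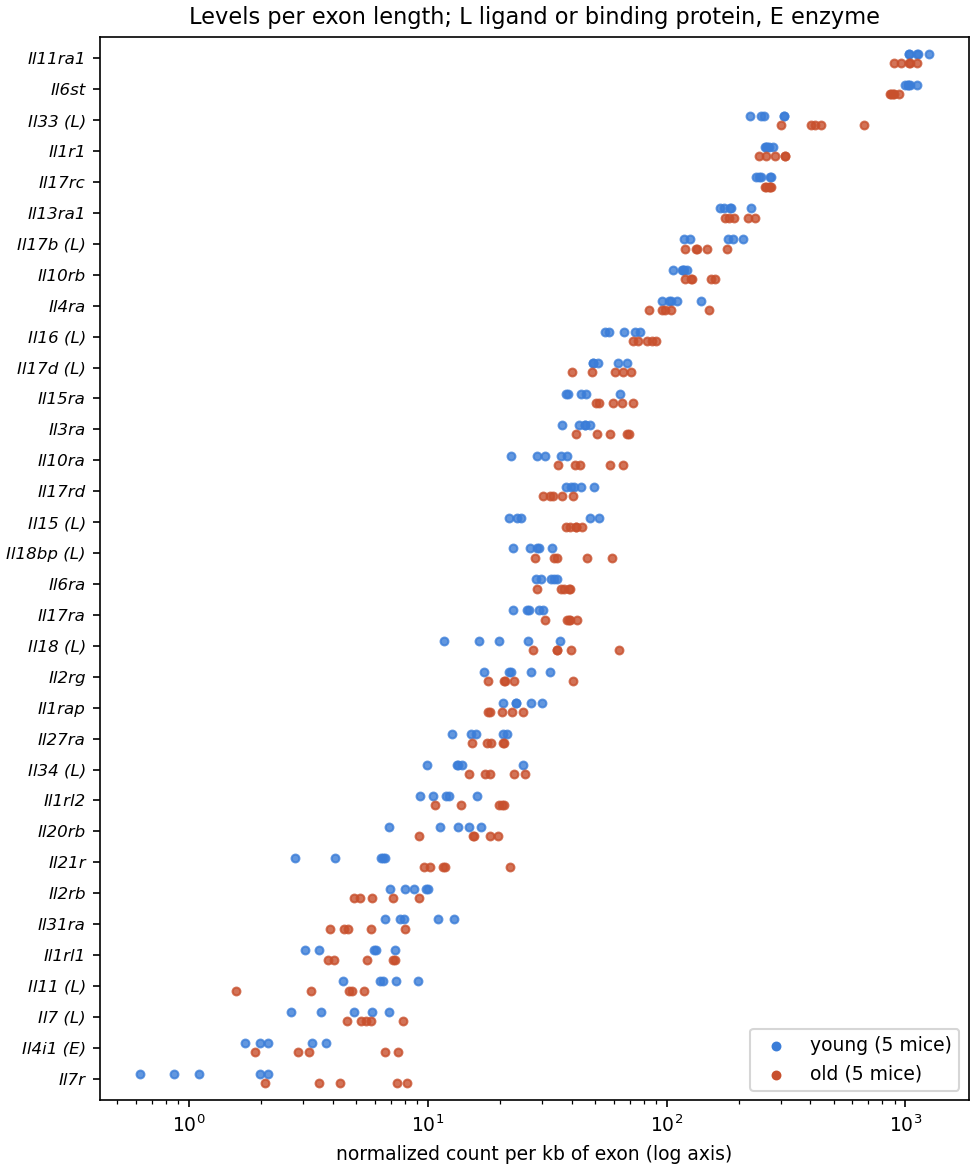
Normalized count per kb of exon (log axis) in each library for the 34 tested genes, ordered by their mean over all libraries, blue for the 5 young and red for the 5 old aortae; L marks ligands and the binding protein, E the enzyme. Il11ra1 and Il6st stand at the top near 1063 and 967, Il33 follows at 359, and Il7r is the lowest at 3.22.

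Receptors were the more abundant side. Per kb of exon, the highest were Il11ra1 with 1063 and Il6st with 967, then Il1r1 with 274, Il17rc with 261, Il13ra1 with 194, Il10rb with 127, Il4ra with 109 and Il15ra with 52.8. Over the 10 libraries the values of Il11ra1 and Il6st overlapped, as did those of Il1r1 and Il17rc, Il10rb and Il4ra. The values of the other neighbours in this order did not overlap, although those of Il17rc and Il13ra1 (lowest 236 and highest 234) nearly met. Il11ra1 shares 46.3% of its windows with near-identical genes, and its neighbour copy Il11ra2 was listed at 0 in every library, so the level of Il11ra1 is uncertain. Of the 41 receptors 23 were tested and 5 passed (21.7%, against 11.5% of all genes tested), 4 higher (6.48% of all genes) and 1 lower (4.99% of all genes). Their median log2 fold change was 0.12.

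In the common gamma chain family, 7 of 10 receptor genes were tested. Il7r and Il21r passed as higher, 2 of 7 against 6.48% of all genes tested. Il7r is the alpha chain that binds IL-7 and TSLP and is best known on T cells and innate lymphoid cells. The gene lies at chr15:9505788-9530176 (minus strand). It read 9.20, 4.03, 9.97, 2.90 and 5.12 normalized counts in the young mice and 20.0, 16.3, 38.2, 34.7 and 9.72 in the old mice. In old aortae 4 values lay above all young values, and the fifth old mouse lay just below the highest young one. The mean rose from 6.24 ± 3.16 to 23.8 ± 12.2 (SD, n = 5 each), and the log2 fold change of 1.93 (3.81-fold) had a standard error of 0.44 (adjusted p = 0.0129). The gene reached the level of the low-count filter in 1 young and 5 old libraries, so it was tested because it was high in old aortae. With a filter on the mean over all libraries in its place, the adjusted p was 0.0134.

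Il21r, the receptor for the T cell interleukin IL-21 on B, T and NK cells, lies at chr7:125603429-125633570 (plus strand). Its normalized counts were 21.5, 21.1, 21.9, 13.5 and 9.22 in young and 34.0, 39.2, 73.6, 38.6 and 32.1 in old aortae. Every old aorta was above every young one, and old library 3 stood apart from the other old ones. The mean rose from 17.5 ± 5.77 to 43.5 ± 17.1 (SD, n = 5 each), a log2 fold change of 1.32 (2.50-fold) with a standard error of 0.30 (adjusted p = 0.0137). Without old library 3 the log2 fold change was 1.04 (adjusted p = 0.0297). The ligand Il21 had no read in any library.

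The shared chain of this family, Il2rg, had means of 57.7 ± 13.9 and 58.9 ± 21.8 (SD, n = 5 each), a log2 fold change of 0.03 with a standard error of 0.24 (adjusted p = 0.956). Reads of Il2rg are uncertain because 27.5% of its windows are shared with an overlapping gene. Il15ra, which presents IL-15 to neighbouring cells, had means of 204 ± 46.6 and 266 ± 39.7 and did not pass (log2 fold change 0.39, standard error 0.15, adjusted p = 0.112). Il2rb, the signalling chain for IL-2 and IL-15, had means of 37.3 ± 5.47 and 27.7 ± 7.46 (log2 fold change -0.42, adjusted p = 0.240). Il4ra, which receives IL-4 and IL-13, ranged from 572 to 836 in young and from 508 to 903 in old aortae (log2 fold change -0.04, standard error 0.15, adjusted p = 0.895), with 8.44% of its windows shared with an antisense gene. Il13ra1, its partner for IL-13, had a log2 fold change of 0.10 (adjusted p = 0.551).

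**Figure D3:**
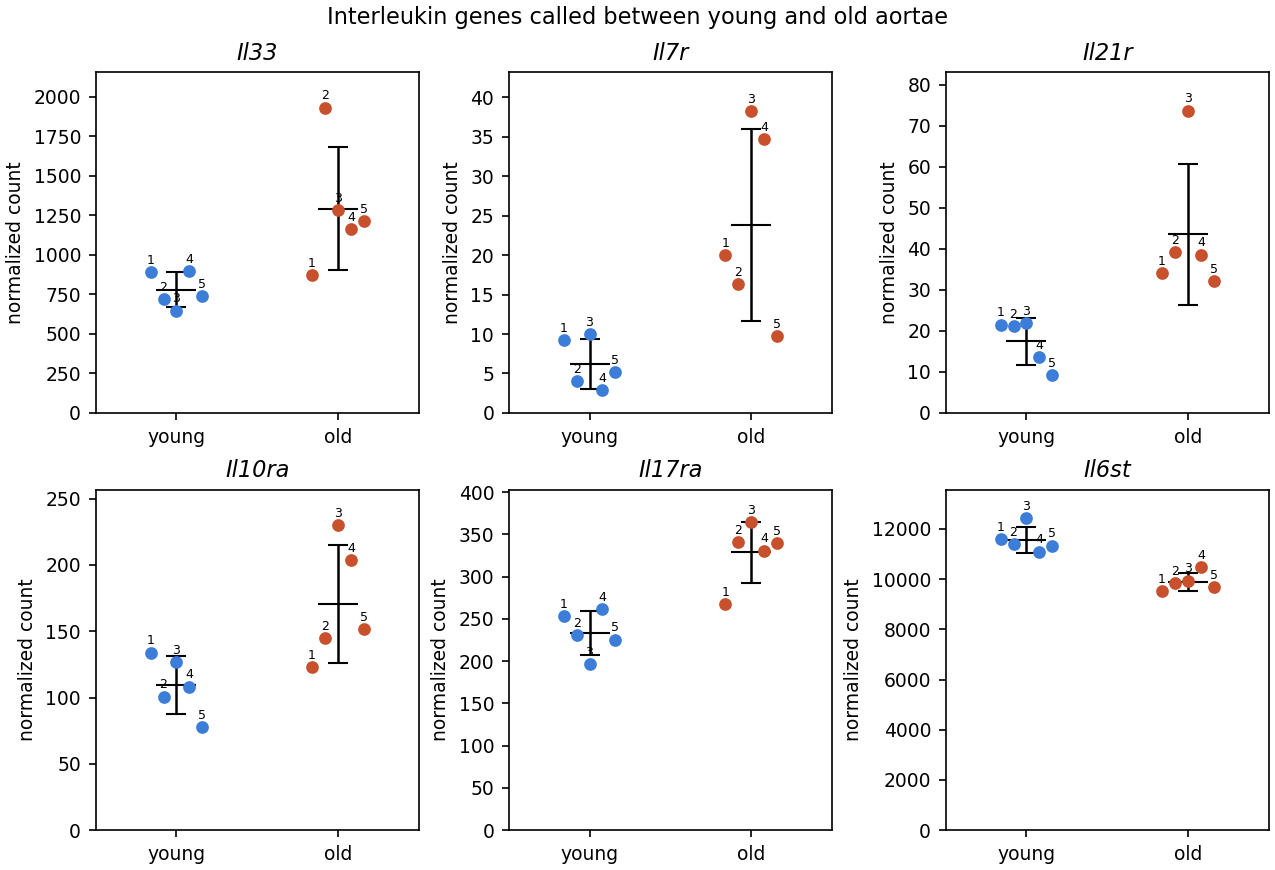
Normalized counts of the 6 called genes in each library, with the mean and SD of 5 mice per group; numbers beside the points are the replicate numbers, and each axis starts at 0. The groups do not overlap for Il21r, Il17ra and Il6st, while 1 old aorta of Il33, Il7r and Il10ra lies within the young range.

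In the IL-10 family, Il10ra rose. It encodes the ligand-binding chain for IL-10, which restrains macrophages and other leukocytes, and lies at chr9:45253837-45269149 (minus strand). Normalized counts were 134, 101, 127, 108 and 77.9 in young and 123, 145, 230, 203 and 152 in old aortae. The first old mouse lay below 2 of the young ones, and the other 4 lay above all of them. The mean rose from 109 ± 22.2 to 171 ± 44.5 (SD, n = 5 each), with a log2 fold change of 0.65, a standard error of 0.19 and an adjusted p of 0.0423. This call is close to the threshold. It was lost with limma-voom (adjusted p = 0.0517, where 11.3% of all genes passed) and when young library 2 (0.0961), 4 (0.0897) or 5 (0.0946) or old library 3 (0.101), 4 (0.0950) or 5 (0.0599) was left out.

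The shared chain Il10rb had means of 441 ± 22.8 and 523 ± 68.9 and did not pass (log2 fold change 0.25, standard error 0.09, adjusted p = 0.0819), and 13.9% of its windows are shared with an overlapping gene. Il20rb, a chain for IL-20 and related ligands, had a log2 fold change of 0.32 (adjusted p = 0.459). For Il10 itself 2 reads were counted over all young and 11 over all old mice.

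Il7r, Il21r and Il10ra are known from leukocytes, and leukocyte markers moved in these libraries. Il2rg, the shared chain for the lymphocyte growth interleukins, did not pass (log2 fold change 0.03, adjusted p = 0.956). Neither did Il2rb (-0.42, adjusted p = 0.240). Among all genes tested 6.48% passed as higher. Of 10 pan-leukocyte genes 6 passed as higher, and their summed level was 2081 to 2981 in young and 3215 to 6664 in old aortae. Of 12 macrophage genes 6 passed as higher, with sums of 13240 to 15497 and 16298 to 28055. Of 10 T cell genes 4 were tested and Cd3g and Cd4 passed as higher. Sums over the list were 32.2 to 93.0 in young and 75.9 to 249 in old, so they overlapped. The other tested T cell genes, Lck (log2 fold change 0.91, adjusted p = 0.298) and Cd5 (0.04, adjusted p = 0.958), did not pass. Cd3g read 0 to 8.97 in young and 11.0 to 38.2 in old aortae, and Cd4 5.98 to 13.3 and 15.0 to 44.7. Both passed the low-count filter through the old libraries, so they were tested because they were high in old aortae. The defining T cell gene Cd3e averaged 1.19 in the young and 13.5 in the old mice and was below the filter. The sums of B cell genes (22.1 to 141 and 57.0 to 551, 4 of 7 tested, none passed) and NK cell genes (2.01 to 15.0 and 5.83 to 29.8, none of 7 tested) also overlapped between the groups. Neutrophil genes summed to 28.0 to 47.0 and 56.4 to 194 (1 of 7 tested, 1 higher). Dendritic cell genes summed to 414 to 667 and 663 to 719 (3 of 7 tested, 1 higher). Mast cell genes summed to 596 to 1251 and 714 to 967, with 7 of 10 tested. Of these 4 were higher and 1 was lower (4.99% of all genes). The part of these markers in the receptor differences was not tested. In bulk tissue, more cells of a type and more RNA per cell cannot be told apart.

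In the IL-17 family, Il17ra rose. It is the common chain through which IL-17A, IL-17F and other IL-17 forms signal, and it is found on stromal and myeloid cells alike. The gene lies at chr6:120463247-120487559 (plus strand). Its normalized counts were 254, 230, 196, 262 and 225 in young and 268, 341, 364, 331 and 339 in old aortae. All old values were above all young ones, although the first old mouse was close to the highest young one. The mean rose from 233 ± 25.7 to 329 ± 36.2 (SD, n = 5 each), a log2 fold change of 0.50 (1.42-fold) with a standard error of 0.10 (adjusted p = 0.00730). Because the groups did not overlap, an exact two-sided permutation test of the group means had to give p = 0.00794, the smallest that 5 against 5 mice allow. The groups did not overlap in 9.92% of all genes tested. Il17ra was the member with the smallest adjusted p and passed under all 18 other settings.

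The partner chain Il17rc had nearly level counts, 681 ± 45.8 in young and 712 ± 17.8 in old aortae (log2 fold change 0.07, standard error 0.06, adjusted p = 0.472). Il17rd, also called Sef, an inhibitor of fibroblast growth factor signalling, had means of 464 ± 49.9 and 380 ± 43.7 and did not pass (log2 fold change -0.28, standard error 0.09, adjusted p = 0.0725). With DESeq2, which passed 15.8% of all genes tested, it was called. The ligand Il17a had no read in any library, and Il17f had 1 read over all young and 2 over all old mice.

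In the IL-6 and IL-12 family, Il6st was lower. It encodes gp130, the shared signalling chain for IL-6, IL-11, LIF, oncostatin M and others, and lies at chr13:112464070-112510086 (plus strand). Normalized counts were 11588, 11388, 12418, 11094 and 11327 in young and 9531, 9834, 9943, 10473 and 9683 in old aortae. Every old value was below every young value. The mean fell from 11563 ± 510 to 9893 ± 360 (SD, n = 5 each), a log2 fold change of -0.22 with a standard error of 0.06 (adjusted p = 0.0237). This separation, seen in 9.92% of all genes tested, fixed the exact two-sided permutation p at 0.00794. The call was lost without young library 3 (adjusted p = 0.0570) or old library 5 (adjusted p = 0.0598). Of 8 endothelial markers 1 passed as lower, where 4.99% of all genes tested did. The log2 fold change was negative for 7 of the 8, with a median of -0.66 over the list. In edgeR's quasi-likelihood test 5 were lower at an unadjusted p below 0.05, against 12.6% of all genes. The summed level of the 8 markers was 20484 to 34871 in young and 11813 to 24107 in old aortae. Their part in the Il6st difference was not tested.

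The ligand-binding chains of this family did not pass. Il6ra, the IL-6 receptor, had means of 275 ± 23.6 and 311 ± 37.9 (log2 fold change 0.19, standard error 0.10, adjusted p = 0.256). Il11ra1 had means of 4986 ± 403 and 4524 ± 378 (log2 fold change -0.13, standard error 0.07, adjusted p = 0.267). Il31ra, which pairs with the oncostatin M receptor to bind IL-31, read 45.0, 43.3, 72.8, 37.7 and 62.5 in young and 22.0, 32.7, 25.2, 45.3 and 26.3 in old aortae. One old aorta lay above 3 young ones, and the log2 fold change of -0.78 had a standard error of 0.25 (adjusted p = 0.0632). It passed with DESeq2 and also with DESeq2 on every gene with a count, which passed 6.96% of all genes. Il27ra, which uses gp130 for IL-27, had a log2 fold change of 0.12 (adjusted p = 0.710).

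Among chains that pair with gp130 but carry no Il symbol, Osmr and Lifr were listed here, and both rose. Osmr, the oncostatin M receptor, read 1281, 1340, 1359, 1359 and 1426 in young and 2035, 2723, 1972, 1971 and 1882 in old aortae. The groups were well apart, and the log2 fold change was 0.65 with a standard error of 0.09 (adjusted p = 0.000672). Lifr, the LIF receptor, rose from 1589 ± 89.6 to 1978 ± 209 (log2 fold change 0.32, standard error 0.07, adjusted p = 0.0124). Il6, the best known ligand of this family, had 9 reads over all young and 12 over all old mice, with 8 of the latter in old library 2.

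**Figure D4:**
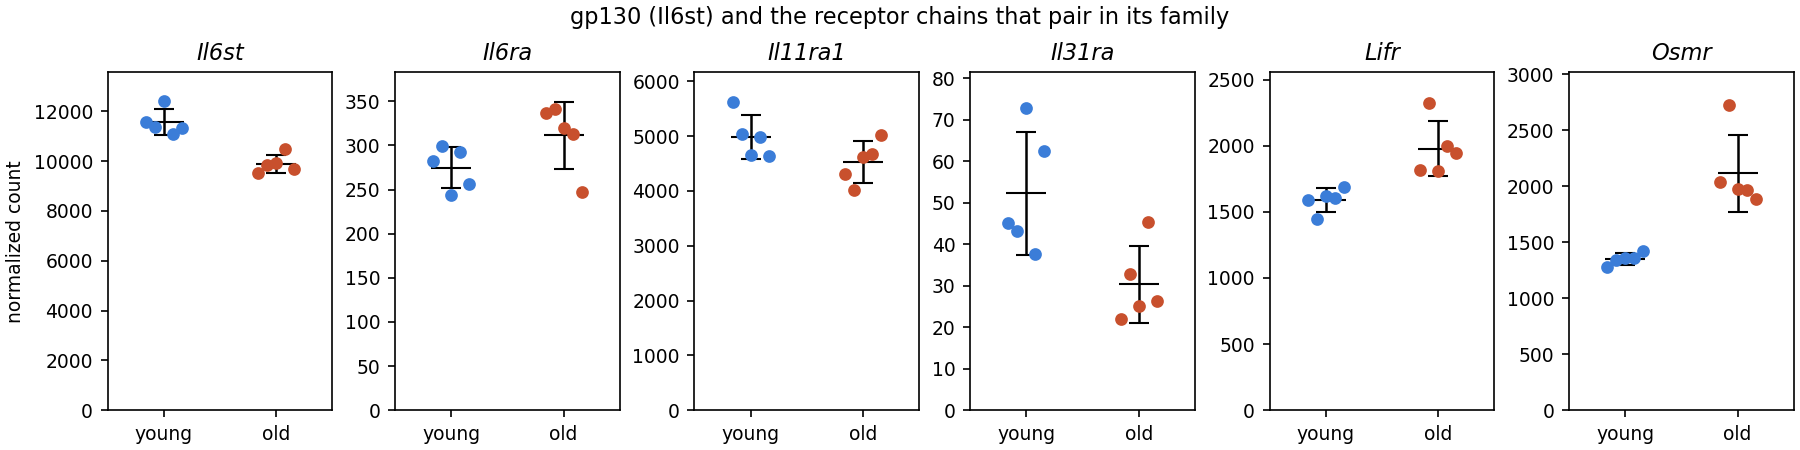
Normalized counts of Il6st (gp130) and 5 receptor chains that work with it or with its partners, one point per library, with the mean and SD of 5 mice per group; each axis starts at 0. Il6st is lower and Lifr and Osmr are higher in all 5 old aortae, while the groups overlap for Il6ra, Il11ra1 and Il31ra.

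In the IL-1 family no receptor passed. Il1r1, the signalling receptor for IL-1, had means of 1691 ± 52.7 and 1799 ± 198 (log2 fold change 0.10, standard error 0.07, adjusted p = 0.429), with all 5 young aortae between 1639 and 1774. Its accessory chain Il1rap had means of 282 ± 41.9 and 236 ± 34.6 (log2 fold change -0.25, standard error 0.12, adjusted p = 0.216). Il1rl2, the receptor for IL-36, had means of 81.9 ± 17.5 and 116 ± 31.2 (log2 fold change 0.52, standard error 0.20, adjusted p = 0.124). In the common beta chain family, Il3ra had means of 129 ± 12.6 and 171 ± 34.8 (log2 fold change 0.41, standard error 0.15, adjusted p = 0.0881). Il4i1 had means of 10.5 ± 3.64 and 18.0 ± 10.1 (adjusted p = 0.237), but 86.3% of its exon sequence is overlapped by other genes.

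Below the filter, 11 members had at least 3 reads per library on average. For 5 of them an exact two-sided permutation test of the normalized counts gave p below 0.05, where 13.2% of the 2366 genes in this range did. All 5 overlapped between the groups; 3.97% of the genes in this range did not. These p-values are not adjusted. Il18r1, the ligand-binding chain for IL-18, read 5.11, 3.02, 9.97, 1.93 and 3.07 in young and 13.0, 6.54, 30.8, 28.9 and 7.78 in old aortae. Old libraries 3 and 4 were the highest and 2 old values lay below the highest young value (exact permutation p = 0.0317). When edgeR was run without a filter, Il18r1 passed with a log2 fold change of 1.90 (adjusted p = 0.0173).

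Il18rap, the second chain of the IL-18 receptor, averaged 3.44 ± 2.58 in the young group and 9.39 ± 3.41 in the old group (SD, n = 5 each; exact permutation p = 0.0238). Il2ra (CD25), the alpha chain that raises affinity for IL-2, averaged 4.62 ± 2.57 and 9.83 ± 3.01 (SD, n = 5 each; exact permutation p = 0.0159). Il12rb1, shared by the receptors for IL-12 and IL-23, averaged 1.82 ± 1.32 and 7.03 ± 3.73 (SD, n = 5 each; exact permutation p = 0.0238). Old library 3, with the highest leukocyte sums, was the highest for all of these and for Il18r1. None of Il18rap, Il2ra and Il12rb1 passed in edgeR without a filter, with adjusted p-values of 0.106, 0.215 and 0.0727.

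Il1b, the main secreted IL-1, read 7.16, 0, 6.98, 2.90 and 4.10 in young and 8.99, 28.3, 11.2, 5.78 and 8.75 in old aortae. The fourth old value lay within the young range and old library 2 was far above the rest (exact permutation p = 0.0238). In edgeR without a filter the adjusted p was 0.103. That library also had the highest summed neutrophil markers, 194 against 56.4 to 117 in the other old and 28.0 to 47.0 in the young aortae. Their part in the Il1b level was not tested. Il1rn, the IL-1 receptor antagonist, averaged 3.20 ± 2.94 and 8.51 ± 6.21 (SD, n = 5 each; exact permutation p = 0.0952), and its highest value, 18.5, was in the same library.

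**Figure D5:**
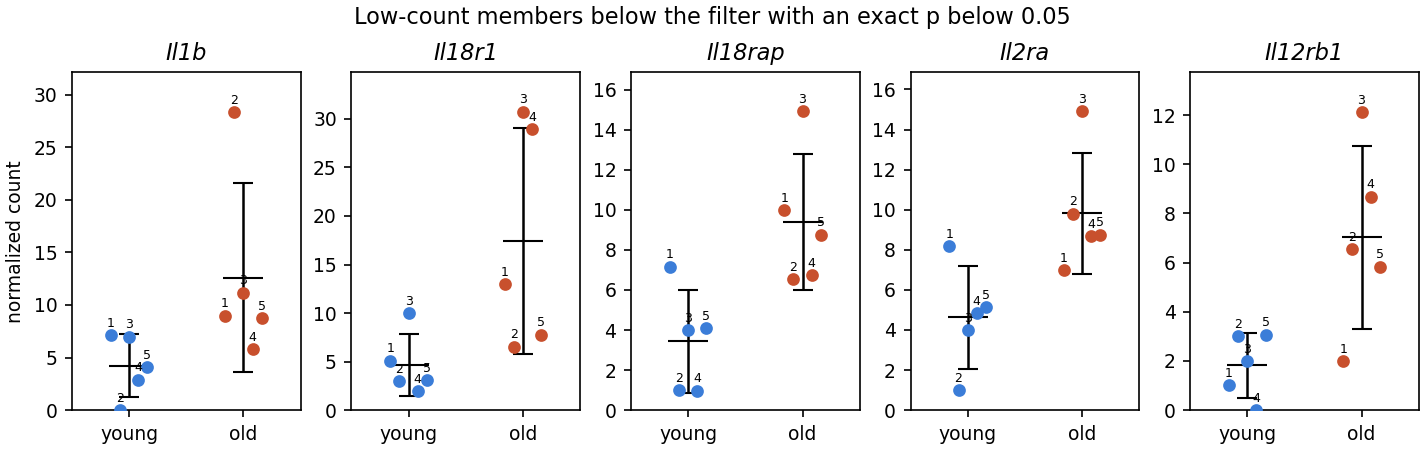
Normalized counts of the 5 members below the low-count filter with an exact permutation p below 0.05, one numbered point per mouse, with the mean and SD of 5 mice per group; each axis starts at 0. The groups overlap for all 5, old library 2 is the highest for Il1b, and old library 3 for the others.

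The other low members with at least 3 reads per library were Il1r2, Il17re, Il17rb, Il9r and Il27, with exact permutation p-values between 0.460 and 0.921. Of the remaining members, 14 ligand-side genes and 2 receptors had no read in the 10 libraries. They include the T cell interleukins Il3, Il9, Il13, Il21 and Il22, the epithelial Il20 and Il24, and the shared subunit of IL-12 and IL-23, Il12b. A gene at 0 was not detected at this depth, which does not show that it is absent. For Il11ra2, with 100% of its windows found in other genes, reads may not have been assignable to the gene at all. For Il22, with 41.0%, this concerns only part of its sequence.

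In the wider pathway, 75 further genes were listed, of which 70 were tested and 13 passed (18.6%, against 11.5% of all genes tested), 10 higher and 3 lower. Among 10 tested receptor partners and their ligands, Osmr, Lifr and Crlf2 were higher (6.48% of all genes) and none was lower (4.99% of all genes). Crlf2, which pairs with Il7r to bind TSLP, rose from 402 ± 18.5 to 586 ± 50.3 (SD, n = 5 each), with no overlap between the groups (log2 fold change 0.55, standard error 0.07, adjusted p = 0.000357). The shares of the Janus kinases and STAT factors (1 of 10) and of the signalling inhibitors (1 of 9) were near that of all genes. Tyk2, a kinase bound to the IL-10, IL-12 and IL-6 receptors, was the kinase that passed (log2 fold change 0.29, adjusted p = 0.0344), and it was lost under 7 of 18 other settings, with adjusted p-values up to 0.0864 without young library 2. Stat3, which carries IL-6 and IL-10 signals, had a log2 fold change of 0.13 (adjusted p = 0.22). Cish, a STAT5-induced feedback inhibitor, was lower (log2 fold change -1.22, adjusted p = 0.0478). This call was lost under 11 of 18 other settings, among them limma-voom, the fit without a low-count filter (adjusted p = 0.145) and the omission of young library 2 or 3 or of any 1 old library. Socs3, a feedback inhibitor of gp130, had a log2 fold change of -0.04 (adjusted p = 0.93).

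Among 20 transducers of the IL-1 and IL-17 receptors 2 passed, a share of 10% that is near the 11.5% of all genes. Irak3, an inhibitory kinase of the Myd88 pathway, read 288, 234, 292, 267 and 259 in young and 365, 413, 435, 398 and 403 in old aortae. All old values exceeded the young ones, and the log2 fold change was 0.59 with a standard error of 0.08 (adjusted p = 0.000578). Rel, an NF-kB subunit of leukocytes, was lower (log2 fold change -0.41, adjusted p = 0.0470), but lost under 10 of 18 other settings, with adjusted p-values up to 0.101 without young library 4. Among 7 inflammasome genes 2 were higher, against 6.48% of all genes. Casp4 (caspase-11) was higher (log2 fold change 0.91, standard error 0.16, adjusted p = 0.00271). So was Gsdmd, the pore protein through which IL-1 family members leave the cell (log2 fold change 0.39, adjusted p = 0.0356). The call of Gsdmd was lost under 7 of 18 other settings, with adjusted p-values up to 0.0925 without young library 4. Casp1, which cuts the precursors of IL-1 beta and IL-18, had a log2 fold change of 0.09 (adjusted p = 0.83).

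Of 14 tested genes known to respond to interleukins, 3 were higher (6.48% of all genes) and 1 lower (4.99% of all genes). The chemokines Ccl2 and Ccl7, which attract monocytes, had log2 fold changes of 2.02 and 1.91 (adjusted p = 0.0195 and 0.0110). Ccl2 was lost without a low-count filter (adjusted p = 0.0639) and without young library 2. Ccl11 (eotaxin), which IL-4 and IL-13 induce, rose from 337 ± 45.9 to 610 ± 106 (SD, n = 5 each; log2 fold change 0.86, adjusted p = 0.000957). Fgl2 was lower (log2 fold change -0.39, adjusted p = 0.00367). The adhesion molecules Icam1 (log2 fold change -0.09, adjusted p = 0.67) and Vcam1 (0.80, adjusted p = 0.057) did not pass.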

How the data were processed

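Poly(A) RNA of 10 aortae was sequenced, 1 mouse per library. The authors trimmed the reads with fastp 0.20.0, aligned them with STAR 2.7.0f to GRCm38 and counted them per gene with featureCounts (Subread 1.6.4). The deposited values are these raw counts as the authors made them, for 55453 symbols. The strand setting of the counting is not given in the sources used here, so it is not known whether reads of overlapping antisense genes were kept apart.

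Genes were filtered with filterByExpr, which left 14614 of the 28011 genes that had any read. The quasi-likelihood F test of edgeR 4.0.16 (R 4.3.3, TMM, robust) then compared the age groups without covariates. Benjamini-Hochberg adjustment ran over all genes tested, with calls at 0.05. Standard errors were derived from the F statistic. Levels are counts scaled by DESeq2 1.42.0 size factors, as mean and SD over 5 mice. Genes below the filter with a mean count of at least 3 had an exact permutation test, two-sided, over 252 assignments. Lengths, positions and windows of 50 bases shared with other genes came from GENCODE M21, where the authors used M22, and promoters from RefSeq, which listed 65 of the 82 members. The tests were tested on simulated data.

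Total counts were 19640401 to 22886153. Counts of 2 libraries of 1 group differed 8.06 to 58.8 times more than counting error (chi-square over degrees of freedom, 20 pairs), so none was a duplicate. The members, lists and settings were chosen with earlier results of these data known. Described in full were members called or with an unadjusted p below 0.05, the 4 ligands and 8 receptors highest per kb, and 13 well-known members. Lists gave 6 pathway groups and 13 cell types. Of the tested genes, smooth muscle (1 of 8), dendritic cell (1 of 3) and neutrophil (1 of 1) genes were called higher. Mast cell genes gave 5 calls of 7, 4 higher and 1 lower (Kit). Fibroblast genes gave 2 of 8, 1 higher and 1 lower. Adipocyte (0 of 8) and striated muscle (0 of 4) genes gave none. Among all genes tested 11.5% were called, 6.48% higher and 4.99% lower. Alternatives were DESeq2 with and without filter, limma-voom (limma 3.58.1), other scalings and filters, a threshold of 0.01, the replicate number as a block and the omission of each mouse.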

Additional observations from a re-analysis of the deposited data

Results flagged for a closer look

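In groups of 5, a sample was marked when its gap to the next value exceeded 0.71 of the range of its group (Dixon's test). Of 58 groups of 5 libraries examined over the 29 genes described in full, 2 were marked, and chance marks about 1 in 20. Il1b in old library 2 was 28.3 normalized counts, where the next old value was 11.2. Il21r in old library 3 was 73.6 normalized counts, where the next old value was 39.2.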

How the results depend on the processing

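Il17ra, Il21r and Il7r kept their call under all 18 settings without the replicate number, Il6st under 16, Il33 under 13 and Il10ra under 11. Il33 was also lost without a low-count filter (adjusted p = 0.0899). The 6 calls among all members became 1 at an adjusted p of 0.01 and 4 to 10 when a mouse was left out. For the ligands (1 call) DESeq2, upper-quartile factors and library size alone gave 2 calls, an adjusted p of 0.01 gave 0, and leaving out a mouse gave 0 to 2. For the receptors (5 calls) the values were 1 at 0.01 and 4 to 8 without a mouse. Without young library 1 the members gave 10 calls. The pathway genes (13 calls) gave 20 with DESeq2, 6 at 0.01 and 9 to 19 without a mouse. The 5 low-count members became 3 to 5 without a mouse, 3 of them without young library 2, 4 or 5. Some small differences changed sign when a mouse was left out, namely Il1rl1 (log2 fold change -0.026 to 0.27), Il4ra (-0.20 to 0.055), Il17d (-0.055 to 0.14) and the ratio of Il6 (0.54 to 2.00, with 0.54 without old library 2). The cause of these changes was not tested. All genes tested gave 1676 calls, 2304 with DESeq2 and 1132 to 2367 without a mouse. The counts limit what can be said of members below the filter.

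The libraries of both groups carry replicate numbers 1 to 5. Deviations of libraries with the same number from their group means had correlations between -0.300 and 0.132, and 2 of 5 correlated best with their own number, so the numbers were not taken as pairs. With the replicate number as a block, 1261 genes passed, and 4 members, none of them ligands. Il33 had an adjusted p of 0.0960 and Il6st of 0.0942 with the block.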
